A study of Mus musculus with 23 samples.

Results

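The transcripts of 8 genes of fibroblast growth factor (FGF) signaling were followed from the mouse zygote to the 2-cell embryo: the FGF receptor genes Fgfr1 and Fgfr2, the Sprouty genes Spry1, Spry2 and Spry4, the Spred genes Spred1 and Spred2, and the phosphatase gene Dusp6. They were chosen by gene name for their place in the pathway, with earlier results of these data known, and are 8 of 22619 named genes in the data. The study asked whether MLX and RFX1, transcription factors whose motifs were examined in pronuclear chromatin, act on the activation of the embryonic genome, and it used ETV5, which is hardly expressed in oocytes and zygotes, as a negative control. Oocytes at the germinal vesicle stage were injected with a mix of siRNAs against either Etv5, Mlx or Rfx1, or with a control siRNA (siCtrl). They were then matured in vitro and fertilized, so every embryo, controls included, passed through injection and in vitro maturation. The labels give the hybrid strain B6D2F1 (C57BL/6xDBA/2) for all samples, which by the methods text is that of the oocyte donors, and no group carries a gene deletion. Zygotes were harvested at 14 and 2-cell embryos at 36 h post fertilization (hpf) by the sample labels, while the methods text of the study gives somewhat later times. Each of the 8 groups (zygote or 2-cell; siCtrl, siEtv5, siMlx or siRfx1) had 3 libraries, except siEtv5 2-cell embryos with 2, which made 23. The labels do not say whether the libraries of a group came from separate injections, so the p-values measure the spread among these particular libraries, some of it possibly technical.

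FGF receptors are receptor tyrosine kinases that, once bound by a ligand, pass a signal through the adaptors FRS2, GRB2 and SOS to the RAS-RAF-MEK-ERK kinase cascade. ERK signaling induces its own inhibitors: Sprouty and Spred proteins hold back the activation of RAS and RAF, and DUSP6 removes phosphate from ERK itself. In the mouse blastocyst, days after the stages studied here, FGF4 and its receptors FGFR1 and FGFR2 guide cells of the inner cell mass toward primitive endoderm.

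Promoter sequences are shown for Spry1, Spry2 and Dusp6, the members whose levels changed most between the stages in control embryos. Each is the 250 bases before the annotated transcript start in mm9, the genome build of the files, read on the strand of the gene, with CpG dinucleotides in capitals, at chr3:37538622-37538871 (plus), chr14:106296037-106296286 (minus) and chr10:98725615-98725864 (plus).
Spry1: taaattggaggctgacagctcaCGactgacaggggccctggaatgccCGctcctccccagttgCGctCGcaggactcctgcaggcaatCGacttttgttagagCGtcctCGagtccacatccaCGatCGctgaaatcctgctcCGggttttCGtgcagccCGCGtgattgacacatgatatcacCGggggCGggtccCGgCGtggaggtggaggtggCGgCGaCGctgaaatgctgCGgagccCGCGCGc
Spry2: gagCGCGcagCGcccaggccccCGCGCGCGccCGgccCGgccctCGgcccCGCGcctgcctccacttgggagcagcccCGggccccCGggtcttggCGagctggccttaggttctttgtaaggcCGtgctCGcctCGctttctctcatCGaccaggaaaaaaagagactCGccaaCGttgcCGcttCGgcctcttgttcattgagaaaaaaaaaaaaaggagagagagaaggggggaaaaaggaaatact
Dusp6: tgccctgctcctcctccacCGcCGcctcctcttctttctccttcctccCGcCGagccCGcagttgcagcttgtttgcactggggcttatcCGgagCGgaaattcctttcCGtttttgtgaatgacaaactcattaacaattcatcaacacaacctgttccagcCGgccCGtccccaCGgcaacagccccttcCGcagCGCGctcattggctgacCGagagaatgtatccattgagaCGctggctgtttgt
The windows of Spry1, Spry2 and Dusp6 hold 24, 23 and 16 CpG, against a median of 10 over the 24609 windows of this length before all annotated starts. Spry1 and Spry2, which moved in opposite directions between the stages, have nearly the same GC content, 62.8 and 62.4%. Among the other members CpG counts were 10 for Fgfr1, 2 for Fgfr2, 20 for Spry4, 41 for Spred1 and 12 for Spred2. The ETS core CCGGAAG, the E-box CACGTG and GTTGCCA, a part of the X-box, were looked for on both strands. These letters are tied to the families of ETV5, MLX and RFX1. They were present in 9.1, 6.72 and 3.25% of all windows and in none of the 8 member windows, which says only that these letters are not there.

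Expression is given as FPKM, fragment counts scaled to transcript length and to sequencing depth, so that levels of different genes can be set side by side. Aligned sequence amounted to 404 to 991 Mb in 20 libraries and to 119 to 174 Mb in the 3 siRfx1 2-cell libraries, in which 7378 to 8071 genes reached 1 FPKM against 8354 to 11135 elsewhere. Across genes, Pearson's r between libraries of 1 group was 0.812 to 0.84 in siRfx1 2-cell embryos and 0.921 to 0.984 in the other groups. The summed FPKM of 11 oocyte and maternal markers was 2910 to 5880 in zygotes and 157 to 868 in 2-cell embryos. That of 12 markers of 2-cell embryos was 32 to 104 in zygotes and 131 to 1620 in 2-cell embryos, so the stage labels held for every library. Of 15 markers of cumulus and granulosa cells, 2 to 7 reached 1 FPKM in at least 1 library of a group, and the list summed to 31.2 to 221 FPKM in a library. Among them Serpine2 averaged 74.6 FPKM in siCtrl zygotes and Amhr2 44.3 FPKM in siCtrl 2-cell embryos, while Inha, Inhba and Lhcgr were listed at 0 in all libraries. Because these are bulk samples, fewer embryos carrying a transcript and less transcript per embryo cannot be told apart.

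The siRNA targets were low in most of their own groups. Etv5 was 49.4, 43.7 and 44.6 FPKM in the siCtrl 2-cell libraries and 8.98 and 5.55 FPKM with siEtv5, a difference that passed the test (log2FC -2.52, SE 0.27, limma adjusted p = 0.022). Mlx in siCtrl zygotes was 1.84, 3.63 and 4.25 FPKM, and in siMlx zygotes 0.469, 0 and 0.442 FPKM (limma adjusted p = 0.053), while in 2-cell embryos the siMlx values of 0.836, 2.26 and 4.05 FPKM overlapped the controls. Rfx1 was 0.149 to 0.481 FPKM in siRfx1 zygotes against 3.05 to 3.52 FPKM with siCtrl (limma adjusted p = 0.17). In 2-cell embryos it was 1.43 to 1.53 against 8.12 to 10.7 FPKM (limma adjusted p = 0.17). Rfx1 was also below every control with siMlx, at 0.864 to 1.33 FPKM in zygotes and 1.85 to 2.88 FPKM in 2-cell embryos (limma adjusted p = 0.1 and 0.15). With siEtv5 it was below them in 2-cell embryos (4.39 and 4.94 FPKM, limma adjusted p = 0.29) and overlapped them in zygotes.

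In mm9 Fgfr1 spans 26629244 to 26686186 on chromosome 8 (plus strand) and Fgfr2 137305965 to 137410322 on chromosome 7 (minus strand), each spread over 18 exons. The Sprouty genes are compact: Spry1 occupies chromosome 3 from 37538872 to 37543521 (plus strand), Spry2 chromosome 14 from 106291164 to 106296036 (minus) and Spry4 chromosome 18 from 38745919 to 38760922 (minus). Spred1 lies on chromosome 2 from 116947186 to 117005072, Spred2 on chromosome 11 from 19824445 to 19922600 and Dusp6 on chromosome 10 from 98725865 to 98730123, all on the plus strand. No exon of the 8 genes overlaps an exon of another gene in the annotation used, while the reads themselves were not examined for sharing. Of 3 annotated Fgfr1 transcripts and 2 of Fgfr2, 1 each had FPKM above 0, and the others were listed at 0 in all 23 libraries. Coverage leaned to the 3' end, as oligo-dT priming gives: the last exon held 73.3% of the aligned bases of Fgfr1 with 39.3% of its length, 96.4% of those of Spred1 with 67.9% of its length, and 59.8% of those of Fgfr2 with 32.2%. For Spry4, whose last exon makes up 97.8% of the transcript, the share was 97%. Coverage that is uneven in this way differs between the members, and its part in the order of their levels was not tested.

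In zygotes 1 inhibitor gene dominated. Spry4 was 208 to 566 FPKM over the 12 zygote libraries, with a median of 329 FPKM, and made up 81.9 to 91.5% of the summed FPKM of the 8 members. It stood above 98 to 99.4% of the genes listed above 0 in these libraries. Next came Spry1 with a median of 39.2 FPKM (32.7 to 68.6), Spred2 with 8.57 (5.94 to 14.4), Spred1 with 3.5 (1.77 to 6.4), Fgfr1 with 2.22 (1.14 to 4.02) and Fgfr2 with 1.32 (0.858 to 2.16). Dusp6 had a median of 0.7 FPKM (0.347 to 2.06), and Spry2 was listed at 0 in 7 of 12 libraries and reached at most 1.1 FPKM, in siMlx replicate 2. Spry4 and Spry1 did not overlap each other or any other member in zygotes, whereas Spred2 overlapped Spred1, and the ranges of Spred1, Fgfr1, Fgfr2 and Dusp6 ran into their neighbours.

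In 2-cell embryos the order was different. Spry4 was still the most abundant member, at a median of 158 FPKM (62.4 to 231) over 11 libraries and 45.8 to 81.7% of the members' sum. Spry2 followed with 22.4 FPKM (8.47 to 72.3), then Spred2 with 10.4 (3.34 to 52.3), Spred1 with 8.9 (1.6 to 49), Dusp6 with 6.2 (0 to 19.5), Spry1 with 3.4 (0 to 15.3), Fgfr1 with 2.83 (0 to 5.56) and Fgfr2 with 0.792 (0 to 3.5). Every neighbouring pair in this order overlapped in range across libraries, including Spry4 and Spry2. Within each library, however, Spry4 was above Spry2, with 68 to 93.3% of the summed FPKM of the Sprouty genes against 5.3 to 29%. Spry1 was above Spry2 in 12 of 12 zygote libraries and in 0 of 11 2-cell libraries.

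The first question was how each member changed from the zygote to the 2-cell stage, which was tested separately in each siRNA group. These groups share no library. A gene was called when limma gave a Benjamini-Hochberg adjusted p under 0.05 over all genes tested, here those whose mean reached 1 FPKM, and a fold above 2 on log2(FPKM + 1) after rescaling of the libraries. This scale understates the change of low genes, and log2 fold changes (log2FC) below are on it. With siCtrl, 4 of 8 members were called, against 63.9% of all genes, 2 of them higher (37.0% of all genes) and 2 lower (26.9%). With siEtv5 it was 5 of 8 (60.9%), with siMlx 3 of 8 (64.5%) and with siRfx1 3 of 7 that could be tested (48.4%). As deposited, the libraries of the stages did not overlap for 4 members higher and 3 lower with siCtrl (45.3 and 29.4% of all genes), 5 and 2 with siEtv5 (49.5 and 26.6%), 1 and 2 with siMlx (42.0 and 27.2%) and 1 and 3 with siRfx1 (26.3 and 31.9%), where the untested Fgfr2 is among the lower. The members were thus called about as often as other genes or less, and the number called says nothing particular about them. Over all genes the median log2FC was 0.27, 0.40, 0.20 and -0.23 in these groups (0.52, 0.67, 0.57 and -0.02 on the FPKM as deposited), and over the members 0.03, 0.61, -0.35 and 0.42.

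The receptor genes stayed low at both stages. Fgfr1, the broadly expressed receptor, was 2.08, 2.89 and 2.65 FPKM in the siCtrl zygote libraries and 3.5, 3.62 and 5.56 FPKM in the siCtrl 2-cell libraries. These groups did not overlap, yet the difference did not pass the test (log2FC 0.35, SE 0.27, limma adjusted p = 0.27, 95% interval -0.28 to 0.97). Fgfr1 did not pass in siEtv5, siMlx or siRfx1 embryos either, with log2 fold changes of 0.32, -0.24 and -0.92. Fgfr2 was 2.16, 1.05 and 1.48 FPKM in siCtrl zygotes and 0, 0.792 and 0.912 FPKM in siCtrl 2-cell embryos. Every 2-cell library was thus the lower (log2FC -0.85, SE 0.35, limma adjusted p = 0.055). With siEtv5 the direction was the other way, from 1.2, 1.29 and 0.858 FPKM in zygotes to 3.38 and 3.5 FPKM in 2-cell embryos. That difference had an adjusted p of 0.019 from limma but a log2 fold change of 0.90, under the fold required, and it was called with a pseudocount of 0.1 (1.31) and on the FPKM as deposited (1.08). With siMlx Fgfr2 did not pass (log2FC -0.46) and was called lower without 2-cell replicate 1 (-1.03, limma adjusted p = 0.0075). The difference between the stage changes of Fgfr2 in siEtv5 and siCtrl embryos was 1.64 (SE 0.45, limma adjusted p = 0.12), which did not pass. Aligned sequence behind a value of Fgfr2 was 14.8 kb at most, so these levels are imprecise.

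**Figure D1:**
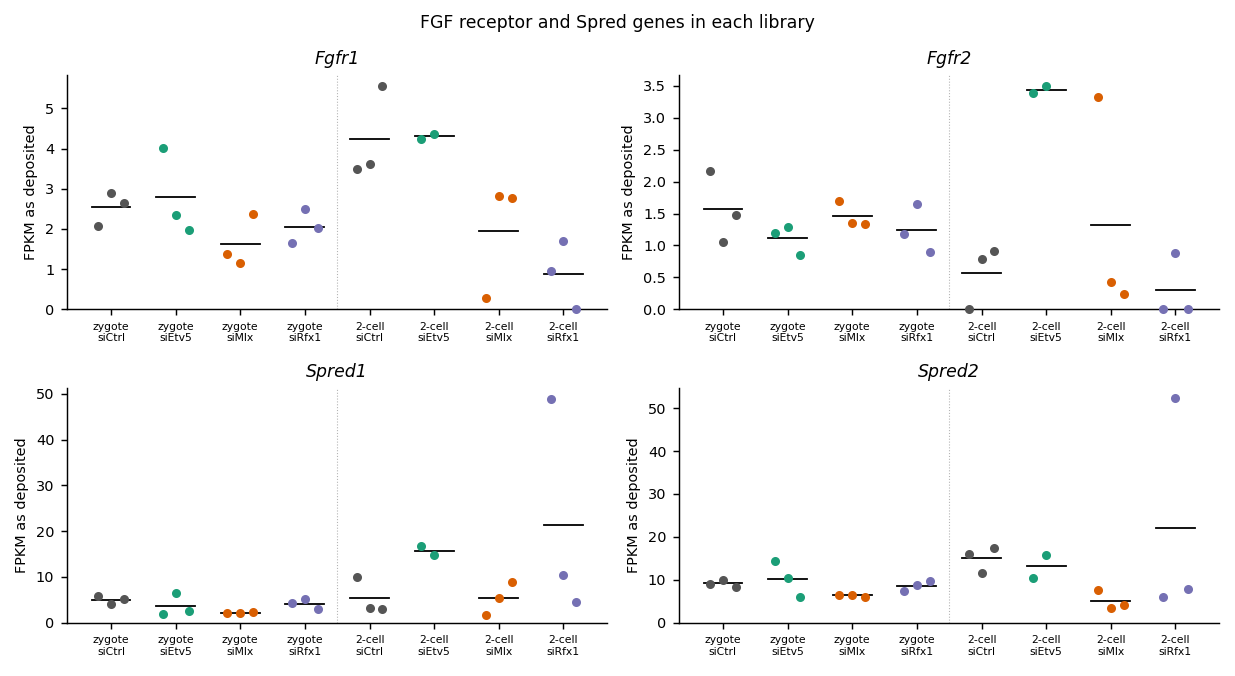
FPKM as deposited (y axis) of Fgfr1, Fgfr2, Spred1 and Spred2 in each library (points) of the 8 groups (x axis; zygotes left of the dotted line, 2-cell embryos right), with horizontal bars for group means. Fgfr1 stays between 0 and 5.56 FPKM and Fgfr2 between 0 and 3.5 FPKM, while single siRfx1 2-cell libraries reach 49 FPKM for Spred1 and 52.3 FPKM for Spred2.

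The Sprouty genes encode inhibitors of receptor tyrosine kinase signaling, and all 3 were called in every siRNA group. Spry1 was 40.1, 49.1 and 46.5 FPKM in siCtrl zygotes and 1.06, 15.3 and 12.7 FPKM in siCtrl 2-cell embryos. It fell by 2.80 on the log2 scale (SE 0.70, limma adjusted p = 0.0073), and by 1.81 without siCtrl 2-cell replicate 1 (limma adjusted p = 4.1e-04). With siEtv5 the zygote values of 68.6, 33.5 and 40.5 FPKM compare with 7.97 and 7.32 FPKM in 2-cell embryos (log2FC -2.67, SE 0.35, limma adjusted p = 9.0e-04). All zygote libraries of these groups lay above all of their 2-cell libraries. With siMlx Spry1 was 35.1, 32.9 and 32.7 FPKM in zygotes and 2.9, 1.15 and 8.66 FPKM in 2-cell embryos (log2FC -3.32, SE 0.47, limma adjusted p = 3.5e-04). With siRfx1 it was 35.3, 38.2 and 50 FPKM and then 0, 3.4 and 2.28 FPKM (log2FC -4.28, SE 0.58, limma adjusted p = 0.0018; -3.54 without 2-cell replicate 1). Spry1 therefore fell in each of the 4 groups, with no overlap between the stages in any.

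Spry2 moved the other way. It was 0.744, 0 and 0 FPKM in siCtrl zygotes and 22.7, 28.9 and 22.4 FPKM in siCtrl 2-cell embryos (log2FC 4.25, SE 0.31, limma adjusted p = 1.3e-05). With siEtv5 it went from 0.289, 0.446 and 0 FPKM to 58.2 and 72.3 FPKM (log2FC 5.57, SE 0.31, limma adjusted p = 6.9e-05). With siMlx it went from 0, 1.1 and 1.03 FPKM to 13.5, 17.5 and 21 FPKM (log2FC 3.21, SE 0.38, limma adjusted p = 1.3e-04). Each 2-cell library of these groups was far above each zygote library, and the rise passed in all. In siRfx1 zygotes Spry2 was listed at 0 in all 3 libraries, so no fold is given, and in siRfx1 2-cell embryos it was 13.9, 31 and 8.47 FPKM, a rise that passed (limma adjusted p = 0.0014). At most 1.62 kb of aligned sequence stood behind a zygote value of Spry2, against a median of 32.5 kb in 2-cell embryos, and a pseudocount of 0.1 moved the log2 fold changes in siCtrl, siEtv5 and siMlx embryos to 6.74, 7.68 and 4.73.

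Spry4 fell to a lesser degree. In siCtrl embryos it went from 318, 341 and 369 FPKM to 158, 231 and 204 FPKM (log2FC -1.06, SE 0.17, limma adjusted p = 7.7e-04). On the FPKM as deposited this was -0.81 and without siCtrl 2-cell replicate 1 -0.85, both still with an adjusted p under the threshold (0.003 and 0.0029 from limma) but under the fold required. With siEtv5 Spry4 went from 543, 258 and 566 FPKM to 163 and 170 FPKM (log2FC -1.63, SE 0.42, limma adjusted p = 0.014). With siMlx it went from 238, 364 and 208 FPKM to 114, 139 and 128 FPKM (-1.43, SE 0.35, limma adjusted p = 0.0062), and with siRfx1 from 286, 295 and 361 FPKM to 62.4, 196 and 149 FPKM (-1.58, SE 0.42, limma adjusted p = 0.022). The stages did not overlap in any group, and every call was toward lower levels. The siRfx1 call ended without zygote replicate 1, 2 or 3 (limma adjusted p = 0.07, 0.064 and 0.084) and, by its fold, without 2-cell replicate 1 (-0.97), and the siEtv5 call ended without 2-cell replicate 1 or 2 (limma adjusted p = 0.16 and 0.15).

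**Figure D2:**
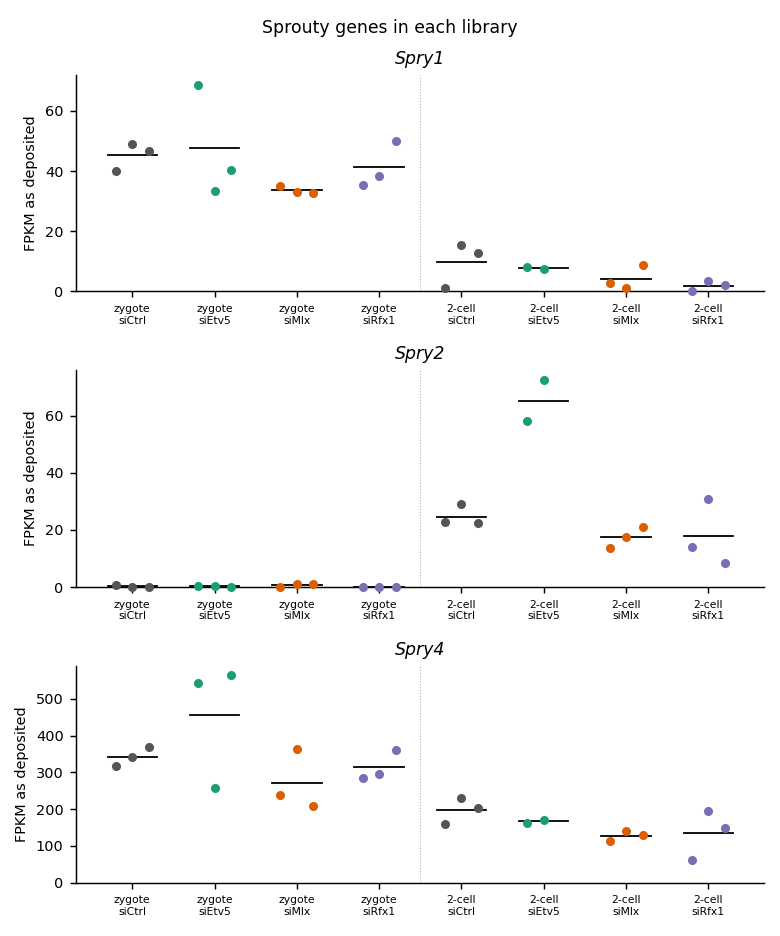
FPKM as deposited (y axis) of Spry1, Spry2 and Spry4 in each library (points) of the 8 groups (x axis; zygotes left of the dotted line, 2-cell embryos right), with horizontal bars for group means. Spry1 goes from 32.7 to 68.6 FPKM in zygotes to 15.3 FPKM or less in 2-cell embryos, Spry2 from 1.1 FPKM or less to between 8.47 and 72.3 FPKM, and Spry4 from a median of 329 to a median of 158 FPKM.

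Spred1 and Spred2, whose proteins bring the RAS inhibitor neurofibromin to the membrane, were not called in controls. Spred1 was 5.74, 4.14 and 5.09 FPKM in siCtrl zygotes and 10.1, 3.1 and 2.92 FPKM in siCtrl 2-cell embryos, which overlap (log2FC -0.29, SE 0.41, limma adjusted p = 0.54). With siEtv5 it rose from 1.77, 6.4 and 2.62 FPKM to 16.8 and 14.7 FPKM (log2FC 1.75, SE 0.48, limma adjusted p = 0.018). This call ended with all 8 groups in a single fit (1.42, limma adjusted p = 0.08), without zygote replicate 3 (adjusted p = 0.054) and without 2-cell replicate 1 or 2 (adjusted p = 0.16 and 0.14). The stage change of Spred1 was larger with siEtv5 than with siCtrl by 1.89 (SE 0.66, limma adjusted p = 0.18), which did not pass. With siMlx it had a log2 fold change of 0.47, and without 2-cell replicate 1, where Spred1 was 1.6 FPKM against 5.4 and 8.9 FPKM in the other libraries, the rise was called (1.01, limma adjusted p = 0.016). Spred2 was 9.07, 9.92 and 8.41 FPKM in siCtrl zygotes and 16.1, 11.5 and 17.4 FPKM in siCtrl 2-cell embryos. All 2-cell libraries were above all zygote libraries, but the difference did not pass (log2FC 0.41, SE 0.23, limma adjusted p = 0.14). Spred2 did not pass with siEtv5, siMlx or siRfx1 either, at 0.13, -0.66 and 0.42. The sign turned for siEtv5 without zygote replicate 3 (-0.18) or 2-cell replicate 2 (-0.08), with the replicate block (-0.14) and when one fit held all 8 groups (-0.21). It turned for siRfx1 without 2-cell replicate 2 (-0.42).

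In siRfx1 2-cell embryos the Spred genes and Dusp6 scattered widely. Spred1 was 49, 10.4 and 4.42 FPKM, Spred2 was 5.92, 52.3 and 7.84 FPKM and Dusp6 was 4, 0 and 10.4 FPKM in replicates 1, 2 and 3. A different library was the highest for each gene. The stage change of Spred1 in siRfx1 embryos (log2FC 1.34, SE 0.84, limma adjusted p = 0.24) was called when all 8 groups shared a single fit (1.46, limma adjusted p = 0.04). Aligned sequence behind these values was 25.5, 3.7 and 1.63 kb for Spred1, 2.96, 17.9 and 2.76 kb for Spred2 and 1.95, 0 and 3.57 kb for Dusp6.

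Dusp6, which encodes a phosphatase of ERK, rose in 2 of the 4 siRNA groups. It was 0.458, 2.06 and 1.17 FPKM in siCtrl zygotes and 13, 14.6 and 19.5 FPKM in siCtrl 2-cell embryos (log2FC 2.75, SE 0.34, limma adjusted p = 1.7e-04). With siEtv5 it went from 1.05, 0.347 and 0.525 FPKM to 6.2 and 10.4 FPKM (log2FC 2.31, SE 0.33, limma adjusted p = 0.0013). Both rises passed, with no overlap between the stages. With siMlx Dusp6 was 1.54, 1.12 and 0.36 FPKM in zygotes and 2.96, 1.29 and 2.74 FPKM in 2-cell embryos, where 1 zygote library was above 1 of the 2-cell libraries and the difference did not pass (log2FC 0.53, SE 0.39, limma adjusted p = 0.26, 95% interval -0.37 to 1.42). With siRfx1 the 2-cell value of 0 in replicate 2 lay below the zygote values of 0.732, 0.668 and 0.475 FPKM (log2FC 1.14, SE 0.85, limma adjusted p = 0.31), and without that library the rise was called (2.1, limma adjusted p = 0.013). The difference between the stage changes was -2.14 for siMlx against siCtrl (SE 0.54, limma adjusted p = 0.077), which missed the threshold and passed it without siMlx 2-cell replicate 1 (-2.4, limma adjusted p = 0.044). It was -0.54 for siEtv5 (SE 0.50, adjusted p = 0.59) and -1.34 for siRfx1 (SE 1, adjusted p = 0.44).

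**Figure D3:**
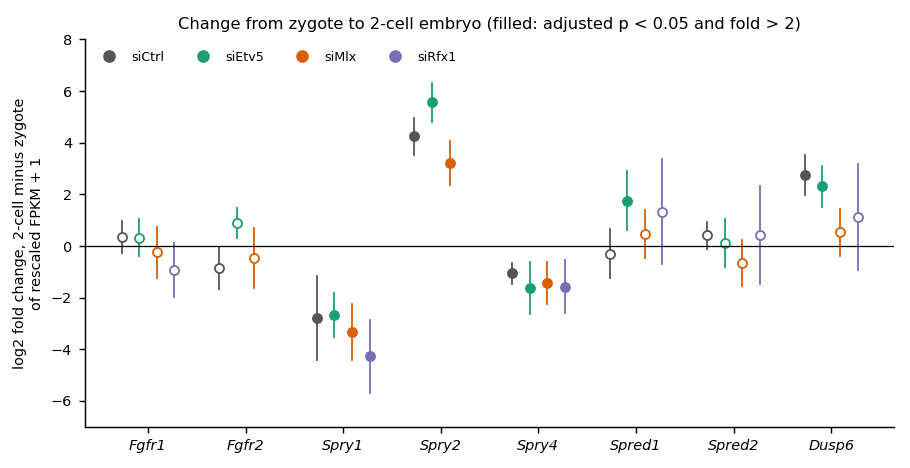
Log2 fold change from zygote to 2-cell embryo on rescaled FPKM + 1 (y axis) of each member (x axis), colored by siRNA group, with 95% intervals from limma and filled points where the change was called. Spry1 and Spry4 are filled below 0 in all 4 groups and Spry2 above 0 in the 3 groups drawn, since siRfx1 zygotes were listed at 0 and give no fold, while Dusp6 is filled for siCtrl (2.75) and siEtv5 (2.31) and open for siMlx (0.53) and siRfx1 (1.14).

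Differences of stage change were tested for all members in a fit over the 4 groups concerned. No member was called for siEtv5, siMlx or siRfx1, where 0.316, 1.16 and 9.96% of all genes were called, and 3, 2 and 0 members had an unadjusted p under 0.05 (18.1, 16.1 and 27.1% of all genes). Spry1 gave -0.05, -0.60 and -1.37 for siEtv5, siMlx and siRfx1, with intervals that included 0. Spry2 gave 1.28 for siEtv5 (95% interval 0.31 to 2.25, limma adjusted p = 0.18) and -0.82 for siMlx (-1.92 to 0.275). Without siMlx 2-cell replicate 1, Spred2 (-1.5) and Dusp6 were called for siMlx, both with a limma adjusted p of 0.044, where 192 of 10817 genes were called. Without siEtv5 zygote replicate 2, Spry4 (-1.12, limma adjusted p = 0.041) and Spred1 (2.32, adjusted p = 0.049) were called for siEtv5, where 711 of 11131 genes were called against 35 of 11060 with all libraries.

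The second question was whether a knockdown changed a member within a stage. The 3 comparisons of a stage share the siCtrl libraries, so their values are given side by side and are not independent of each other. In zygotes no member was called with siEtv5, siMlx or siRfx1, against 0, 2.15 and 0.0557% of all genes, and 0, 1 and 0 members had an unadjusted p under 0.05 from limma (12.4, 24.7 and 14.6% of all genes). As deposited, no member was without overlap with siEtv5 or siRfx1 (21.5 and 23.6% of all genes). Spry2 lay under the filter on low values in all 3 comparisons and Dusp6 in those of siEtv5 and siRfx1. Spry4, the abundant inhibitor, had log2 fold changes of 0.51 with siEtv5 (SE 0.35), -0.03 with siMlx (SE 0.27) and 0.04 with siRfx1 (SE 0.15). The last has a 95% interval of -0.31 to 0.39, and that of Spry1 with siRfx1 was -0.37 to 0.42. With siMlx all 3 zygote libraries were below all siCtrl libraries for Spry1, Spred1 and Spred2 as deposited, a pattern held by 31.3% of the genes tested, and over all genes the median was -0.27 on that scale. Spred1 at 2.17, 2.19 and 2.21 FPKM in siMlx zygotes had the lowest p among the members (log2FC -0.63, SE 0.21, limma adjusted p = 0.12).

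In 2-cell embryos no member was called either, with 0.251, 0.00945 and 3.56% of all genes called for siEtv5, siMlx and siRfx1. At an unadjusted p under 0.05 from limma there were 4, 2 and 0 members (15.5, 18.7 and 23.2% of all genes). Etv5 KD 2-cell embryos had higher Spry2 in both libraries than in any control, 58.2 and 72.3 FPKM against 22.4 to 28.9 FPKM (log2FC 1.38, SE 0.23, limma adjusted p = 0.071, 95% interval 0.85 to 1.91). Under the alternatives its limma adjusted p was between 0.054 and 0.57. Spred1 at 16.8 and 14.7 FPKM (1.58, SE 0.50, adjusted p = 0.22) and Fgfr2 at 3.38 and 3.5 FPKM (1.56, SE 0.54, adjusted p = 0.24) were also above every control, and Dusp6 at 6.2 and 10.4 FPKM was below every control (-0.86, SE 0.34, adjusted p = 0.29). So 3 of 8 members were higher and 1 lower without overlap, where 18.6 and 16.9% of all genes were. The summed FPKM of the 2-cell markers was 1450 to 1620 in these embryos against 659 to 955 with siCtrl, and its part in these values was not tested.

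In Mlx KD 2-cell embryos Dusp6 was the member nearest to a call. Its values of 2.96, 1.29 and 2.74 FPKM lie below the control values of 13, 14.6 and 19.5 FPKM without overlap. The log2 fold change was -2.12 (SE 0.40, limma adjusted p = 0.075, 95% interval -3.04 to -1.21). It passed on the FPKM as deposited (-2.35, limma adjusted p = 0.041), where the median of all genes was -0.27, and without siMlx replicate 1 (-2.42, adjusted p = 0.041) or 3 (-2.14, adjusted p = 0.048), and it did not pass in the other alternatives run (adjusted p = 0.062 to 0.26). Spred2, at 7.55, 3.34 and 4.12 FPKM against 11.5 to 17.4 FPKM, had a log2 fold change of -1.22 (SE 0.44, limma adjusted p = 0.21). As deposited, Fgfr1, Spry2, Spry4, Spred2 and Dusp6, 5 of 8 members, were below every control, where 18.7% of all genes were. The 2-cell markers summed to 131 to 478 FPKM in siMlx 2-cell embryos, below every control, and their part in these differences was not tested. In these embryos Mlx overlapped the controls and Rfx1 was below every control, and the part of either gene was not tested. Spry1 (-0.63, SE 0.82), Spred1 (0.14, SE 0.55) and Fgfr2 (0.55, SE 0.69) overlapped the controls, and siMlx replicate 1 stood apart for Fgfr1 (0.27 FPKM against 2.83 and 2.77) and Fgfr2 (3.32 against 0.422 and 0.234).

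In Rfx1 KD 2-cell embryos, with the shallow libraries, Fgfr1 at 0.949, 1.69 and 0 FPKM and Dusp6 at 4, 0 and 10.4 FPKM were below every control as deposited, 2 of 8 members, where 34.2% of all genes were. Their log2 fold changes were -1.16 (SE 0.64, limma adjusted p = 0.32) and -1.57 (SE 0.98, adjusted p = 0.38), and that of Spred1 was 1.98 (SE 0.93, adjusted p = 0.25). These 3 genes were called when all 8 groups shared a single fit (-1.2, -1.65 and 1.78, limma adjusted p = 0.026, 0.04 and 0.03), which assumes that the siRfx1 2-cell libraries vary like the others. In that fit 3140 of 10799 genes were called, against 367 of 10302 otherwise, so the members were called about as often as other genes. The median of all genes in this comparison was -0.25, or -0.85 on the FPKM as deposited, and the 2-cell markers summed to 265 to 395 FPKM. The oocyte and maternal markers summed to 690 to 868 FPKM in these embryos against 364 to 429 FPKM with siCtrl, and 3 of 9 tested were called higher (Zar1, Mos and Gdf9, at 3.69, 3.18 and 2.33). The part of depth and of either marker list in these values was not tested. Fgfr2 was under the filter, at 0, 0.888 and 0 FPKM.

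**Figure D4:**
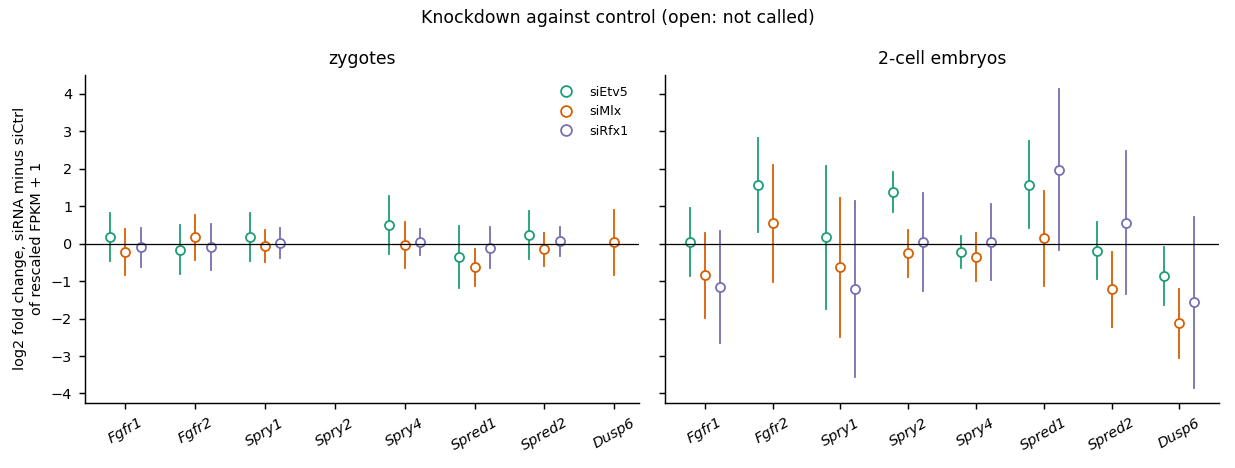
Log2 fold change of each KD group against siCtrl on rescaled FPKM + 1 (y axis) for each member (x axis) in zygotes (left) and 2-cell embryos (right), with 95% intervals from limma. All points are open because none was called, members under the filter have no point, and the intervals farthest from 0 are those of Dusp6 with siMlx (-3.04 to -1.21) and Spry2 with siEtv5 (0.85 to 1.91) in 2-cell embryos.

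Etv5, besides being an siRNA target, is a textbook target of FGF-ERK signaling, and its values stand beside those of Dusp6 here. In siCtrl embryos it went from 2.01, 0.68 and 1.2 FPKM in zygotes to 49.4, 43.7 and 44.6 FPKM in 2-cell embryos. In siMlx 2-cell embryos, where Dusp6 was low in every library, Etv5 was 16.8, 29.9 and 52.4 FPKM, which overlaps the controls (log2FC -0.35, SE 0.32, limma adjusted p = 0.58). In siRfx1 2-cell embryos it was 9.19, 6.73 and 12.6 FPKM, below every control (log2FC -1.53, SE 0.44, limma adjusted p = 0.1). The difference between the stage changes of Etv5 in siRfx1 and siCtrl embryos was called (-1.88, SE 0.49, limma adjusted p = 0.034), where 9.96% of all genes were. For siMlx this difference was -0.95 (SE 0.48, limma adjusted p = 0.36), which did not pass.

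**Figure D5:**
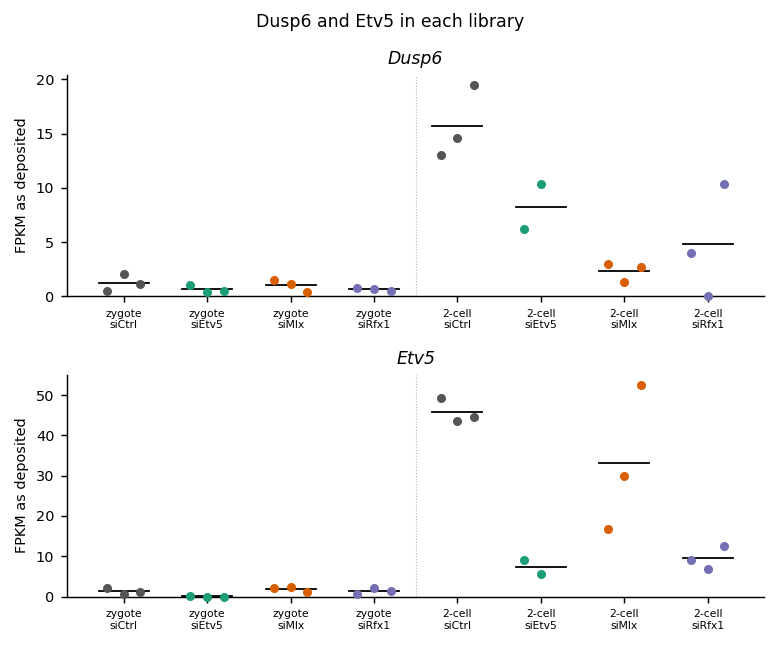
FPKM as deposited (y axis) of Dusp6 (top) and Etv5 (bottom) in each library (points) of the 8 groups (x axis; zygotes left of the dotted line, 2-cell embryos right), with horizontal bars for group means. In 2-cell embryos Dusp6 is 13 to 19.5 FPKM with siCtrl and 1.29 to 2.96 FPKM with siMlx, while Etv5 with siMlx spans 16.8 to 52.4 FPKM against 43.7 to 49.4 FPKM with siCtrl.

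Other genes of the pathway were described by lists, and their counts can be read against the 37.0% of all genes that rose and the 26.9% that fell from siCtrl zygotes to siCtrl 2-cell embryos. Of 22 FGF ligand genes, 8 could be tested, and 4 rose and 3 fell. Fgf8 fell from 21.8, 37.5 and 24.7 FPKM to 3.39, 0 and 0 FPKM (log2FC -4.25, SE 0.56, limma adjusted p = 2.4e-04) and Fgf10 from 4.71, 5.23 and 5.53 FPKM to 0, 0 and 0.391 FPKM (-2.57, SE 0.27, adjusted p = 7.3e-05). Fgf4, the ligand of the blastocyst, was listed at 0 in all 3 siCtrl zygote libraries and was 8.16, 11.5 and 16.2 FPKM in siCtrl 2-cell embryos. Of 6 other receptors and co-receptors 3 were tested and 2 rose: Klb, the co-receptor of FGF21, from 1.49, 0.364 and 1.01 to 6.5, 10.2 and 1.8 FPKM (1.54, SE 0.52, limma adjusted p = 0.028), and the decoy-like receptor Fgfrl1 from 0 in all 3 libraries to 4.47, 15.7 and 4.38 FPKM.

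Downstream, 5 of 9 tested adaptor genes rose and 1 fell. Sos1, which loads RAS with GTP, went from 0.41, 0 and 0.247 FPKM to 13.1, 8.72 and 14.5 FPKM (log2FC 3.26, SE 0.29, limma adjusted p = 3.3e-05), the docking protein gene Gab1 rose by 2.38 (SE 0.32) and the ubiquitin ligase gene Cbl by 1.99 (SE 0.30). Of 13 tested genes of the RAS-RAF-MEK-ERK cascade, 4 rose and 4 fell, and the paired MEK genes moved apart: Map2k1 (MEK1) fell from 236, 237 and 220 FPKM to 47.4, 48.3 and 40.1 FPKM (-2.58, SE 0.15, limma adjusted p = 6.4e-06), while Map2k2 (MEK2) rose from 5.41, 6.5 and 6.57 FPKM to 36, 44.6 and 46.5 FPKM (2.35, SE 0.21, adjusted p = 2.9e-05). The 2 genes were at about the same level in siCtrl 2-cell embryos. Mapk3 (ERK1) fell from 76.3, 81.1 and 87.3 FPKM to 12.4, 27.4 and 22.3 FPKM (-2.24, SE 0.28, limma adjusted p = 2.0e-04).

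Among 13 tested other negative regulators 5 rose and 2 fell. The dual-specificity phosphatase genes Dusp5 (log2FC 3.33, SE 0.45) and Dusp4 (2.52, SE 0.37) rose, with adjusted p of 3.1e-04 and 4.7e-04 from limma, as did Dusp9, which was listed at 0 in the siCtrl zygotes and was 10.4, 14.1 and 9.81 FPKM in 2-cell embryos. Of 10 tested ERK-responsive genes 5 rose and 2 fell, led by the immediate early genes Ier2 (4.89, SE 0.37, limma adjusted p = 1.5e-05) and Ier3 (4.46, SE 0.26, adjusted p = 6.4e-06) and by Etv5 (4.19, SE 0.27, adjusted p = 7.7e-06).

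Within a stage few pathway genes were called with a knockdown, and few genes of any kind were. No gene of the 6 lists was called in zygotes with siEtv5, siMlx or siRfx1, where 0, 2.15 and 0.0557% of all genes were. In 2-cell embryos none was called with siMlx (0.00945% of all genes), and with siEtv5 Etv5 was the single one (0.251%). So these counts say nothing particular about the pathway. With siRfx1 the share of all genes called in 2-cell embryos was 3.56%. Of the lists, 1 of 4 tested other receptors and 1 of 13 tested cascade genes were called, both higher. Among 7 FGF ligand, 9 adaptor, 13 negative regulator and 9 ERK-responsive genes tested, 0 were called. These counts say nothing particular about the pathway either. In siRfx1 2-cell embryos Il17rd, an FGF receptor antagonist, rose from 16.6, 16.4 and 16 FPKM to 72.6, 63.2 and 35.5 FPKM (log2FC 2.36, SE 0.43, limma adjusted p = 0.034), and Nras, a RAS gene, rose from 41.4, 48.1 and 51.7 FPKM to 185, 102 and 235 FPKM (2.49, SE 0.38, adjusted p = 0.022). As deposited, Il17rd and Nras were also above every control. No gene at all was called in this comparison without siCtrl replicate 1 or 2, and 5 genes without replicate 3. The oocyte and maternal markers were higher in these embryos, as given above. The 218 genes higher and 149 lower became 148 and 1183 on the FPKM as deposited. The difference of stage change for siRfx1 called 5 of 12 tested negative regulators and 4 of 9 tested ERK-responsive genes, all lower, where 6.92% of all genes were lower. It also called 1 of 9 tested adaptor genes (Crkl) lower. In the other direction, 1 of 3 tested other receptors and 1 of 13 tested cascade genes were called higher (3.04% of all genes). Of 8 tested FGF ligand genes 0 were called. The negative regulators called included Dusp5 (-3.36, SE 0.79, limma adjusted p = 0.024), Dusp4 (-2.41, SE 0.62, adjusted p = 0.033) and Dusp9 (adjusted p = 0.017). Dusp5 was 0, 2.55 and 0 FPKM in siRfx1 2-cell embryos against 12.7, 21.3 and 5.88 FPKM with siCtrl. Dusp9 was 1.05, 1.73 and 0 FPKM and Dusp4 was 1.06, 0 and 0 FPKM. The test of siRfx1 against siCtrl within 2-cell embryos called 0 of 13 negative regulators and 0 of 9 ERK-responsive genes. It therefore does not show these genes to be lower at that stage. Phlda1, Egr1 and Myc had differences of stage change of -2.59, -2.49 and -2.44 (limma adjusted p = 0.035, 0.024 and 0.025). In this comparison the median of all genes was -0.40, 328 genes were higher and 746 lower (260 and 1392 on the FPKM as deposited). Leaving out a library moved the total of 1074 to between 476 (without siRfx1 zygote replicate 3) and 2255 (without siRfx1 2-cell replicate 2). The siRfx1 2-cell libraries had the lowest depth, and the part of depth in the counts was not tested.

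The genes most like each member were sought among 6937 genes whose mean reached 5 rescaled FPKM, by Pearson's r of log2(rescaled FPKM + 1) over the 23 libraries, which share stage and depth, so that r describes these libraries and carries no test. For Spry1 they were Lin37 and Spats2 (r = 0.961 and 0.96), for Spry2 Zfp800 and Mak16 (0.977 and 0.975) and for Spry4 Trp53inp2 and Cxx1a (0.964 each). Members without a steady stage change had weaker partners: Rit1 and Gtf2h3 for Fgfr1 (0.841 and 0.838), Ap1s2 and Alg10b for Fgfr2 (0.725 and 0.71), Psme4 for Spred1 (0.852), and Tmbim1 and Sbf2 for Spred2 (0.85 and 0.785). For Dusp6 they were Med21 and Slc10a6 (0.853 and 0.849).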

How the data were processed

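RNA-seq of whole embryos was made from oligo-dT primed, amplified cDNA. The authors aligned reads to mm9 with STAR (2.5.2b in the submitters' notes) and quantified RefSeq transcripts with StringTie (1.3.4 in the notes, 1.3.3b in the file headers). The deposited values are the FPKM and coverage that StringTie wrote for 29306 transcripts, not counts. Transcripts lacking a gene name (976 in number, 0.61 to 1.48% of each library's FPKM) were left out, and FPKM was summed per gene. Coverage divided by FPKM gave the aligned bases of a library. Amplified reads carry no molecular identifiers, so depth bounds reads and not molecules.

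The libraries of a comparison were brought to one scale by their median ratio, taken over genes that reached 1 FPKM in each. Genes whose mean then reached 1 FPKM were kept, and log2(FPKM + 1) was tested with limma 3.58.1 (R 4.3.3), with a mean-variance trend and Benjamini-Hochberg adjustment over all genes tested. Called genes have an adjusted p below 0.05 together with more than a 2-fold difference. Fits held the libraries of the compared groups only, and the code was tested on simulated data. The settings varied were the pseudocount (0.1), the filter (none, or 5 FPKM), the rescaling (FPKM as deposited), the samples fitted (all 8 groups, or each library left out), a block for the replicate number and the fold minimum (none), plus a filter on the mean deposited FPKM, added after seeing the data. Figures and sequence work used Python 3.11.15 with numpy 2.4.6, pandas 2.3.3 and matplotlib 3.10.9. Of 237089 introns in the files, 98.9% began with GT and ended with AG in the mm9 sequence used, against 0.388% after a shift of 50 bases.

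The 8 members, the 6 pathway lists and the 5 marker lists were chosen with earlier results of these data known. All members are named, and of each pathway list up to 3 called genes with the largest change in siCtrl embryos and in the siRNA comparisons. Genes of lists without a call are not named here. Sperm markers summed to 9.88 to 35.1 FPKM in zygotes and 0 to 14 FPKM in 2-cell embryos, and stromal and blood markers to 0.822 to 9.15 FPKM in all libraries. Hras is listed as Hras1 in the files, and Hbb-b1 was not analysed here. siRNA and protein sequences were not used here, and 1 gene most like a member is not reported here.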

Additional observations from a re-analysis of the deposited data

How the results depend on the processing

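The counts of called members moved by more than 1.5 times in few alternatives. From the zygote to the 2-cell stage the count of 5 with siEtv5 was 3 to 5 over the libraries left out (3 without either 2-cell library, which leaves 1 that is assumed to vary like the zygotes), and the count of 3 with siMlx was 3 to 5 (5 without 2-cell replicate 1). For siMlx against siCtrl in 2-cell embryos the count of 0 was 1 on the FPKM as deposited and 0 to 1 over the libraries left out, and for siRfx1 it became 3 when one fit held all 8 groups, in which all genes called went from 367 to 3140. For the difference of stage change the count of 0 was 0 to 2 over the libraries left out, both for siEtv5 and for siMlx. Log2 fold changes of single members stayed on their side of the threshold in 1295 pairs of a value and an alternative. They lost a call in 12 and gained one in 16. No called value changed direction, while some values that were not called did. Of these, Spred2 for siRfx1 against siCtrl in 2-cell embryos was 0.56 and ran down to -0.39. The cause of these changes was not tested.

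Whether replicate numbers pair the libraries was checked by the correlation of deviations from the group means, which ran from -0.128 to 0.273, and 0 of 10 comparisons had every same-numbered pair over 0.1, so the numbers were not taken as pairing. With the replicate number as a block, the counts of called members were 4, 5, 3 and 3 for the stage changes in siCtrl, siEtv5, siMlx and siRfx1 and 0 in the other comparisons, as without it. A filter on the mean FPKM as deposited, added after seeing the data, left every count of members as it was and raised the number of all genes called for siMlx in 2-cell embryos from 1 to 11.

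Depth limits Fgfr2, Dusp6 and Spry2 in zygotes and most members in siRfx1 2-cell embryos, where Spry4 rests on 49.8 to 107 kb and Fgfr1, Fgfr2 and Spry1 on 1.01 kb or less.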
